A study of Drosophila melanogaster with 4 samples.

Results

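The data describe 8 genes of the fly photoreceptor in heads of gabapentin-fed and control flies: trp, trpl, inaC, inaD, chp, Galphaq and rdgC, which act in the light response or build the light-sensing organelle, and Hdc, which makes the transmitter that photoreceptors release. They were found by gene symbol in the array's annotation, which gave 9 cDNA clones out of 13824 printed, 2 of them for Galphaq and 1 for each other gene. Of these 9 clones, 8 had a value on 3 or 4 of the 4 arrays, and the second Galphaq clone had a value on array 1 only. By comparison, 854 of all clones, or 6.18%, had a value on 3 or 4 arrays. Of clones with exactly 1 gene symbol, 447 of 7558, or 5.91%, did. The 8 genes were chosen with earlier results of these data known, so their coverage is not a result about photoreceptor genes. The same limit holds wherever a share of these clones is set against that of all clones. Of 14 clones of further listed phototransduction genes, 2 had a value on 3 or 4 arrays.

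In Drosophila photoreceptors, light activates rhodopsin, rhodopsin activates the Gq protein, and Gq activates phospholipase C, after which the cation channels TRP and TRPL open and depolarise the cell. The scaffold protein INAD holds TRP, phospholipase C and the eye protein kinase C together in the rhabdomere, the stack of microvilli that carries the pigment. Photoreceptors signal to the lamina with histamine, which histidine decarboxylase makes from histidine.

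The flies were Oregon-R wild type males, unmated and 10 to 11 days old, kept in vials of 30 for 3 days, either on normal food or on food that held gabapentin at 16 mg/ml. Gabapentin is an anticonvulsant whose target in mammals is the calcium channel subunit alpha2delta. Heads were pooled, 4 pools for each food, and each of the 4 arrays compared 1 pair of pools in 2 colours, so an array is 1 biological replicate. Gabapentin RNA carried the red dye Cy5 on arrays 1 and 2 and the green dye Cy3 on arrays 3 and 4.

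Each value is the deposited ratio, taken as log2, averaged over the duplicate spots of a clone, with the median of all clones on that array subtracted. The medians before subtraction were between 0.52 and 1.14, and between 668 and 2170 clones had a value per array. Such a value says how far a clone's ratio of the 2 dyes stood from that of the middle clone, and it is not an expression level, so levels of different genes are not compared. The labels do not say whether the columns of arrays 3 and 4 are Cy5 over Cy3 or had been turned to gabapentin over normal food. Every mean is therefore given for the columns as deposited and with arrays 3 and 4 turned, and no direction of a drug effect is settled. In whole heads, a change in the number of photoreceptors and a change in RNA per photoreceptor cannot be told apart.

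The photoreceptor genes mostly lay above the array medians in the deposited columns. Of their 29 values, 24 were above the median. For the 8 clones on 3 or 4 arrays it was 23 of 28 values, and over all clones on 3 or 4 arrays 63.1% of values were above it. The median of the clones on arrays 1 to 4 was 0.17, 0.73, 0.53 and 0.10, over 9, 8, 7 and 5 clones. Arrays 2 and 3, of opposite dye orientation, carried the larger values. Duplicate spots of these clones differed by a median of 0.061 to 0.127 log2 units per array and by at most 0.34, against medians of 0.150 to 0.193 for all clones.

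**Figure D1:**
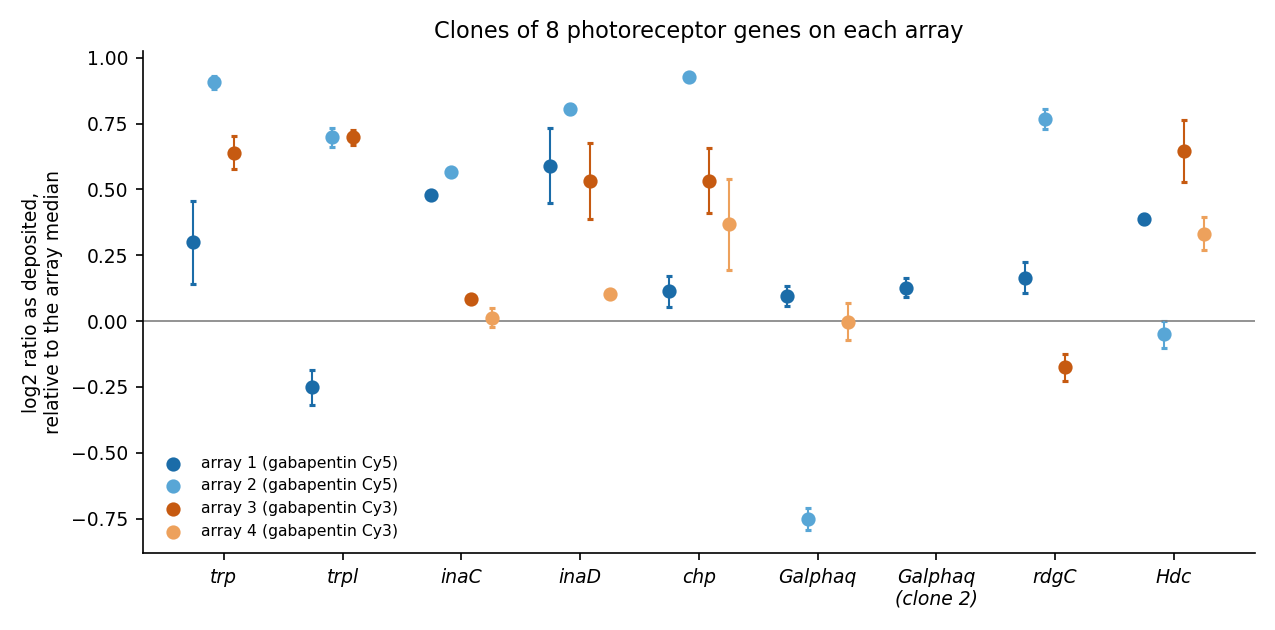
Log2 ratio as deposited relative to the array median (vertical axis) for the 9 clones of the 8 genes (horizontal axis). Points are means of duplicate spots, short bars the 2 spots, and colours the arrays; trp, inaC, inaD and chp lay above 0 on every array with a value, and Galphaq stood at -0.75 on array 2.

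Galphaq, the G protein subunit that couples rhodopsin to phospholipase C, had the lowest value among these clones. Relative to the median it had 0.10 on array 1 and -0.75 on array 2, no value on array 3, and -0.0028 on array 4. Array 2 alone stood apart, and both spots there were low, at -0.71 and -0.79. The second clone of the gene had 0.13 on array 1, close to the first clone on the same array, and had no value where the first was low.

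trp encodes the main light-activated cation channel, named for the transient receptor potential of its mutant. It had 0.30 on array 1, 0.91 on array 2 and 0.64 on array 3, and no value on array 4. All values were above the medians, and array 2 placed it 12th from the top of 2170 clones. trpl, the related second channel, had -0.25 on array 1, 0.70 on array 2 and 0.70 on array 3. It thus lay below the median on array 1 and high on arrays of both orientations otherwise. The difference between the channels, trp minus trpl, was 0.55, 0.21 and -0.058 on arrays 1 to 3, so their order was not the same on every array.

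inaD, the scaffold of the signalling complex, had 0.59, 0.81, 0.53 and 0.10 on arrays 1 to 4. It was above the median on every array and nearest to it on array 4. inaC, the eye protein kinase C that acts in deactivation and adaptation, had 0.48, 0.57, 0.086 and 0.013. Its values fell apart by dye orientation: both arrays with gabapentin in Cy5 were high, and both with gabapentin in Cy3 were near the median. Within an orientation, drug and dye cannot be told apart. The mean of inaC was 0.52 on arrays 1 and 2 and 0.049 on arrays 3 and 4, while inaD had 0.70 and 0.32.

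rdgC, a calcium-regulated protein phosphatase that dephosphorylates rhodopsin, had 0.17 on array 1, 0.77 on array 2 and -0.18 on array 3. Relative to the array medians and with arrays of both kinds counted, it was the only tested clone of the 8 whose values had the same sign on every array once array 3 was turned. chp encodes chaoptin, the adhesion protein that holds microvilli of the rhabdomere together. It had 0.11, 0.93, 0.53 and 0.37 on arrays 1 to 4, above the median on each, and its mean hardly differed between orientations, at 0.52 on arrays 1 and 2 and 0.45 on arrays 3 and 4.

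Hdc, the histidine decarboxylase of photoreceptors, had 0.39, -0.051, 0.65 and 0.33 on arrays 1 to 4. On array 2 it lay near the median, where trp, trpl and inaD stood at 0.91, 0.70 and 0.81. A running median along the row order of the table was also subtracted in place of the array median. On array 2, trp, inaD, chp and rdgC then stood at 1.02, 1.09, 0.82 and 0.66, Hdc at 0.37 and Galphaq at -0.45. Galphaq lies at the start of the row order and Hdc near it, so few or no clones precede them. Their running median may thus not be comparable with that of the other genes, and it left Galphaq at exactly 0 on array 1. Nothing is concluded from the shifts of Hdc and Galphaq.

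Array 2 set these genes apart from other clones more than the rest did. On it, 6 of the 8 clones with a value lay in the highest 5% of all clones: trp, trpl, inaC, inaD, chp and rdgC, with percentiles from 96.8 to 99.6. Among all clones on 3 or 4 arrays, 5.92% of those with a value on array 2 did. On array 1, 2 of 9 clones were in the highest 5% (inaC and inaD), against 4.70% of such clones. On arrays 3 and 4, 0 of 7 and 0 of 5 were, against 7.02% and 5.80%, and the highest percentiles there were 93.9 for trpl and 89.1 for chp. These shares are a description, with no test.

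**Figure D2:**
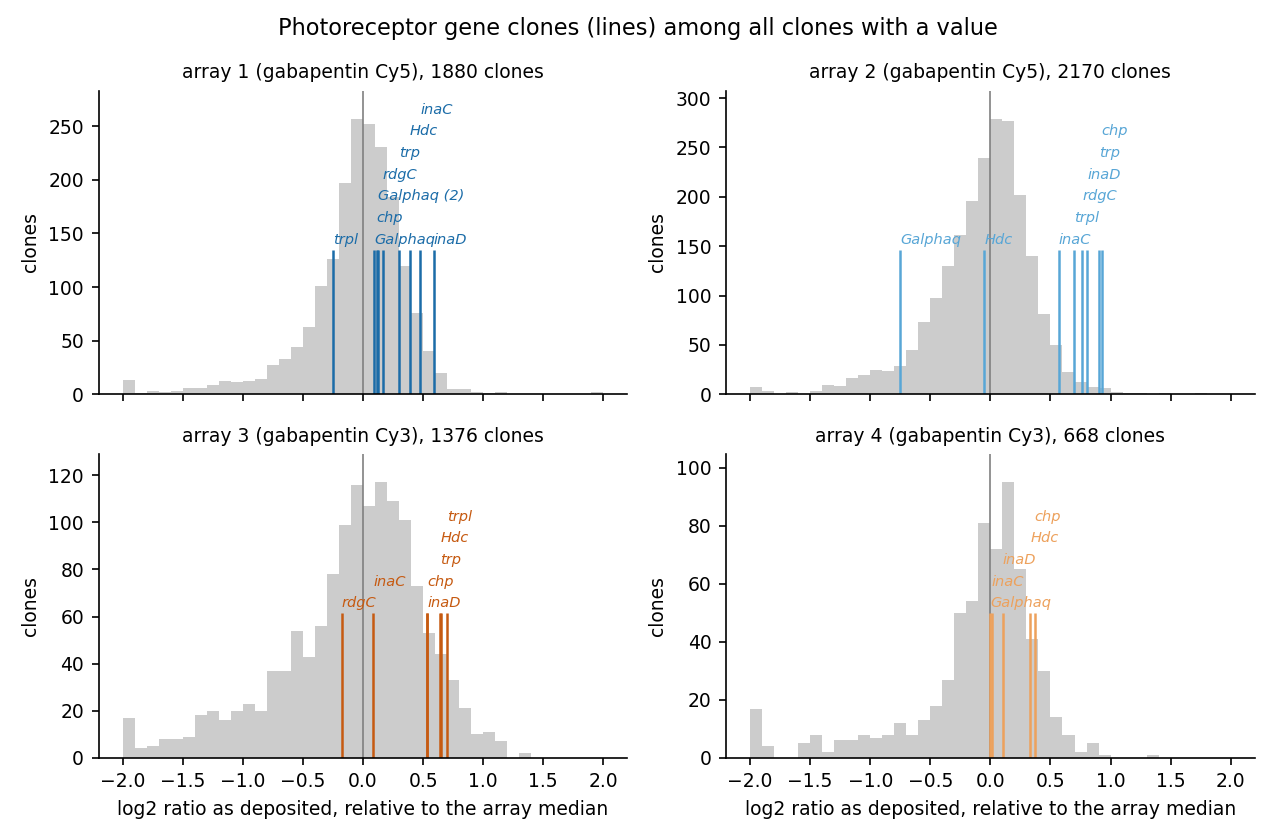
Number of clones (vertical axis) by log2 ratio as deposited relative to the array median (horizontal axis), 1 panel per array, with values beyond 2 in size drawn in the end bins. Coloured lines mark the photoreceptor gene clones; on array 2, 6 of 8 lie in the upper tail, with Hdc near 0 and Galphaq at -0.75.

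With the columns as deposited, no photoreceptor clone passed the test over all clones. limma called 0 of the 8 tested clones at a Benjamini-Hochberg adjusted p under 0.05, as it called 0 of all 854 (0% called), 130 of which had an unadjusted p under 0.05, and the one-class SAM statistic called 0. At an unadjusted p under 0.05, 4 of the 8 clones were higher (trp, inaD, chp and Hdc), against 12.5% of all tested clones, and 0 were lower, against 2.69%. With arrays centred on clones with 3 or 4 values, 3 of the 8 were higher, against 48 of 854. Hdc was then not among them (limma unadjusted p = 0.11). With arrays scaled to equal spread, 5 of the 8 were higher, against 117 of 854. Before the array medians were subtracted, limma called all 8, but also 97.5% of all tested clones. The largest mean was that of trp, 0.61 ± 0.16 (SE, n = 3 arrays, 1.53-fold), with limma's 95% interval from 0.26 to 0.96. inaD had 0.51 ± 0.14 (n = 4) and chp 0.48 ± 0.14 (n = 4), and the limma adjusted p was 0.209 for each of the 3. trpl had 0.38 ± 0.20 (n = 3, limma adjusted p = 0.377), Hdc 0.33 ± 0.14 (n = 4, 0.281), inaC 0.29 ± 0.13 (n = 4, 0.345) and rdgC 0.25 ± 0.18 (n = 3, 0.561). The mean of trpl was 0.70 without replicate 1 (limma adjusted p = 0.0829) and 0.22 without replicate 2 or 3, and that of rdgC was -0.0051 without replicate 2 and 0.47 without replicate 3.

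The mean was above 0 for 7 of the 8 clones, with Galphaq at -0.22 ± 0.18 (n = 3, limma adjusted p = 0.611) the exception (0.046 without replicate 2 and -0.38 without replicate 1), and the median of the clones was 0.36. Over all tested clones 66.7% had a mean above 0, and the median was 0.089. Of the 8 clones, 4 lay above the median on every array with a value (trp, inaC, inaD and chp), against 25.8% of all tested clones, and 0 of 8 lay below it on every array, against 6.09%. An exact two-sided sign-change test over arrays gave p = 0.125 for inaC, inaD and chp and p = 0.25 for trp, the smallest values that 4 and 3 arrays can give.

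With arrays 3 and 4 turned, the means of trp, trpl, inaC, inaD, chp and Hdc were nearer to 0 and that of rdgC was farther from it. limma called 0 of the 8 clones and 0 of 854 (0% called), and 19 of the 854 had an unadjusted p under 0.05. Of the 8 clones, 0 were higher and 0 lower at that unadjusted p, against 0.703% and 1.52% of all tested clones. SAM called 1 of the 854, which was none of these clones. The largest mean was that of rdgC, 0.37 ± 0.19 (SE, n = 3), with an interval from -0.042 to 0.78. Without replicate 2 it was 0.17, and without replicate 3 it was 0.47, when trp was larger at 0.60. inaC had 0.24 ± 0.16 (n = 4), inaD 0.19 ± 0.20 (n = 4), trp 0.19 ± 0.25 (n = 3) and chp 0.034 ± 0.21 (n = 4). trpl stood at -0.084 ± 0.24 (n = 3), Hdc at -0.16 ± 0.18 (n = 4) and Galphaq at -0.22 ± 0.20 (n = 3). The limma adjusted p was 0.999 for all 8. The median of the clones was 0.11, against -0.0048 over all tested clones, and 5 of 8 means were above 0, against 48.8%. rdgC alone of the 8 lay above 0 on every array, against 7.73% of tested clones, and 0 of 8 lay below 0 on every array, against 6.79%. This too depended on the centring. With arrays centred on clones with 3 or 4 values, or with the running median removed, inaC also lay above 0 on all 4 arrays.

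**Figure D3:**
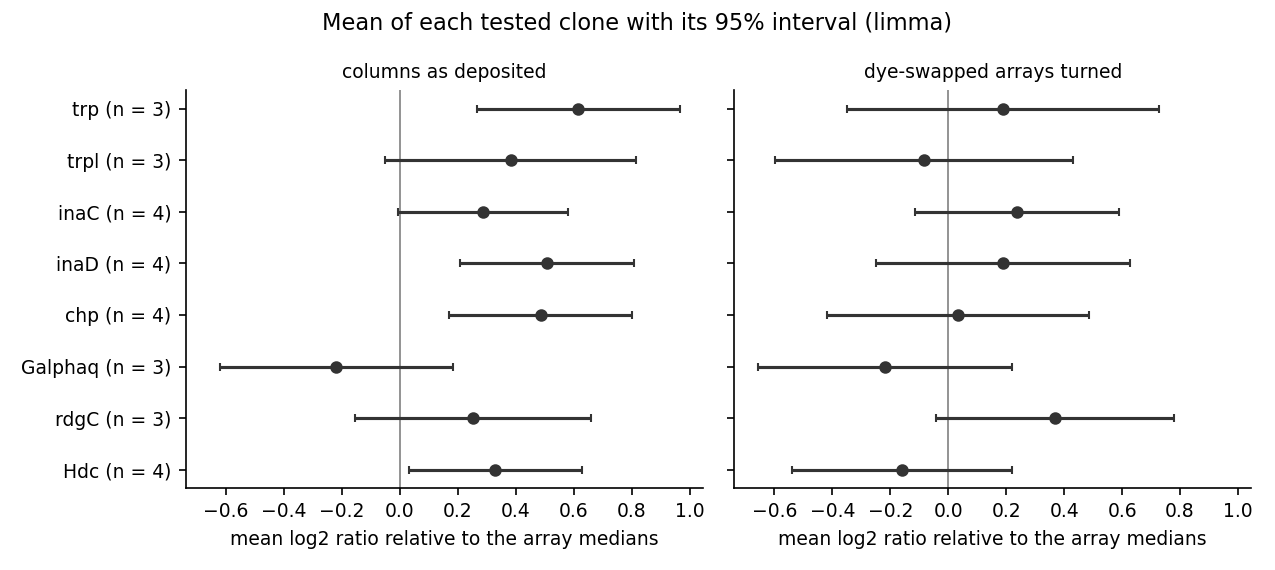
Mean log2 ratio relative to the array medians (horizontal axis) for the 8 tested clones (vertical axis, n arrays), with limma's 95% intervals. With columns as deposited (left), the intervals of trp, inaD, chp and Hdc lay above 0; with the dye-swapped arrays turned (right), all 8 intervals held 0.

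A fit with both components on the same clones separated what the columns share from what is opposite between the dye orientations. The shared component stands for gabapentin over normal food only if the columns of arrays 3 and 4 had been turned. If they are Cy5 over Cy3, the opposite component does. Which of these holds is not settled. The shared component was 0.62 ± 0.17 (SE, n = 3) for trp, 0.51 ± 0.14 (n = 4) for inaD and 0.48 ± 0.14 (n = 4) for chp. These 3 of the 8 clones were called by limma, at an adjusted p of 0.0147, 0.0147 and 0.0204, against 5.39% of all tested clones. The calls rest on how the spread was estimated, since limma gave every clone the same variance in this fit. With the variance of each clone alone, the adjusted p was 0.661 for trp, 0.580 for inaD and 0.592 for chp. With arrays centred on the tested clones, limma's adjusted p was 0.0758, 0.0830 and 0.104. Among the 186 clones on all 4 arrays, where trp is missing, it was 0.0892 for inaD and for chp. Without replicate 1, 2 or 3, only clones with a value on all 3 arrays left were fitted, so the call of trp was not examined there. In those fits, 0 of the 4 or 5 photoreceptor clones left were called. Without replicate 4 the call took in trpl as well, at an adjusted p of 0.0364 (limma).

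For the component opposite between orientations, 0 of the 8 clones were called, against 1.29% of all tested clones. rdgC had 0.32 ± 0.17 (n = 3, limma adjusted p = 0.701), inaC 0.24 ± 0.14 (n = 4, 0.764), inaD 0.19, chp 0.034, trp -0.018, Hdc -0.16, Galphaq -0.16 and trpl -0.24. The 8 clones lay on both sides of 0 here, with a median of 0.0082, whereas the median of their shared component was 0.39, against 0.10 over all tested clones.

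**Figure D4:**
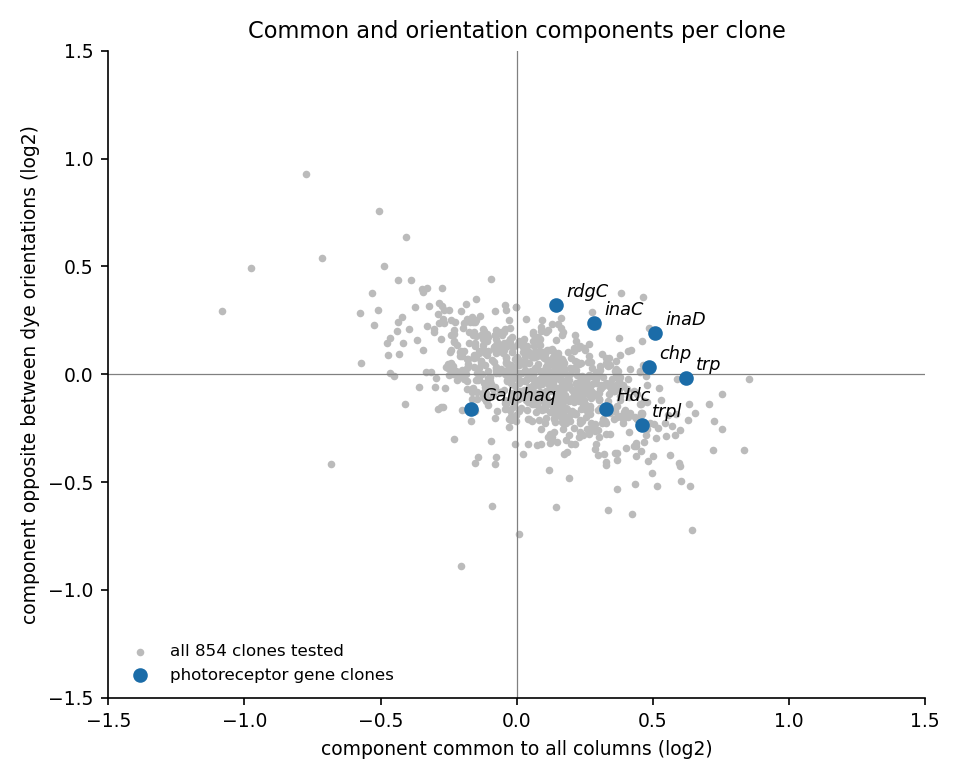
Component common to all columns (horizontal axis, log2) against the component opposite between dye orientations (vertical axis, log2) for the 854 tested clones. Labelled points are the photoreceptor gene clones; trp, inaD and chp lie at 0.62, 0.51 and 0.48 on the common axis, and Galphaq at -0.17.

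Other genes of the pathway were seldom measured. Of 33 further phototransduction genes listed, 13 had a clone with that single symbol and 4 clones had a value on any array. Pis, phosphatidylinositol synthase, had -0.15, 0.66 and 0.054 on arrays 1 to 3, with a mean of 0.19 ± 0.17 as deposited. Pkc53E, a protein kinase C gene that is distinct from inaC, had 0.32, 0.17 and 0.024 on the same arrays, with a mean of 0.17 ± 0.14. Both were at 0.15 with array 3 turned, and 0 of these 2 tested clones were called in either reading (limma).

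Arr1, a photoreceptor arrestin that binds activated rhodopsin, had values on 2 arrays of opposite orientation, 0.44 on array 2 and 0.95 on array 3. rdgA, the eye diacylglycerol kinase, had -0.39 on array 1. Of 8 further genes of histamine handling, 5 had a named clone. t, which encodes the tan hydrolase that frees histamine from its conjugate with beta-alanine, had 0.61 on array 2, and ine, a transporter gene of the neurotransmitter symporter family, had -0.75 on the same array. Of 23 further genes of eye development, structure or the visual cycle, 21 matched a current symbol, 7 had a named clone and 4 had a value on 1 array each: santa-maria, a scavenger receptor gene of carotenoid uptake (-0.0022), and pinta, a retinoid-binding protein gene (-0.34), on array 1, rdhB, a retinol dehydrogenase gene (0.34), on array 2, and ey, a Pax6 transcription factor gene (-0.085), on array 4. None of the histamine or vision clones had enough values to test.

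Markers of other cells in the head were measured as follows, and their part in the values above was not tested. As deposited, the mean lay above 0 for all 3 muscle clones, of Act79B, Act88F and Mlc2, against 66.7% of all tested clones. The median of these means was 0.45. With arrays 3 and 4 turned, 1 of the 3 means lay above 0, and the median was -0.10. The array medians of the muscle clones were 0.051, 0.10, 0.83 and 0.70 as deposited. On array 3, Act79B and Act88F stood at 0.84 and 0.83 and Mlc2 at 0.13, and the array 4 value is that of Act79B alone. The photoreceptor clones had medians of 0.53 and 0.10 on those arrays. Gs2, glutamine synthetase and the only glia marker with a value, had 0.084, 0.28, 0.67 and 0.18. Its mean was 0.30 as deposited and -0.12 with arrays 3 and 4 turned. The fat body clones of apolpp had array medians of -0.067, -1.01, -0.010 and 0.69, where arrays 3 and 4 had a value for 1 clone only. The mean of that clone was -0.078 as deposited and -0.42 with arrays 3 and 4 turned. Clones of the fat body markers Yp1, Yp2, Lsp2 and Fbp1 had no value. The eye pigment cell list had 4 clones and the neuron list 1, none with a value, and no lens marker had a named clone. Of 7 photoreceptor markers, 4 had a named clone, and trp, chp and Arr1 had values.

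The clones on all 4 arrays whose profile was nearest to the mean of inaC, inaD, chp and Hdc were those of TP53INP, Gdh (glutamate dehydrogenase) and Sap47, out of 88 named candidates. The mean profile was 0.39, 0.56, 0.45 and 0.20 on arrays 1 to 4, and the root mean square difference from it was 0.036, 0.13 and 0.18 log2 units for the 3 clones. The 4 genes that made the profile differed from it by 0.17 for inaD to 0.33 for Hdc. TP53INP had 0.44, 0.60, 0.43 and 0.16. TP53INP and Gdh were nearer to the mean than any gene that formed it, but they were picked as the nearest of 88 candidates.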

How the data were processed

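Per the series' design text, the authors scanned the slides, quantified spots in GenePix Pro, normalized ratios in Acuity and kept spots with little saturation, no bad flag and a signal above background. A gene without a value may have failed any of these criteria, so a missing value alone does not show whether the gene was expressed. The deposited values were taken as log2 ratios: the largest size, 9.11, exceeds what a 16-bit scan allows in log10 (4.82) or, above the 100-unit minimum, in natural logarithms (6.49). What the normalization centred on and the direction of the dye-swapped columns are not given in the sources used here.

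Rows were paired to 13824 clones, since all 7558 pairs with symbols on both spots share the symbol. Symbols were updated through Entrez IDs with RefSeq, and 14894 of 15116 spots with 1 symbol were found there. No build is named, so no coordinates or sequences are given. Each array was centred on its median over all clones. The 854 clones on 3 or 4 arrays were fitted with limma 3.58.1 in R 4.3.3 (lmFit, eBayes, Benjamini-Hochberg over all 854, threshold 0.05), and SEs are moderated. Array 4 is the missing one for 578 of the 668 clones with 3 values, so dye orientation is unbalanced in their means. SAM used all 16 sign changes, with its constant set to the median SE. The scripts were tested on simulated data. Figures used matplotlib 3.10.9.

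Genes named are the 8 genes, measured clones of the pathway and marker lists, and the 3 nearest profiles. The genes and lists were chosen with earlier results of these data known. Alternatives varied centring, scaling, spots, filters, position, test and replicates.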

Additional observations from a re-analysis of the deposited data

How the results depend on the processing

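The number of arrays limits every mean, and no result settles the direction of the dye-swapped columns. Each ratio already pairs both foods within an array, so every fit is paired by array and no fit without the pairing could be made. In the as-deposited reading, the count of called clones was 833 without centring, 3 when arrays were centred on clones with 3 or 4 values, and 1 each with arrays scaled to equal spread, with the first spot only and with a robust prior. With 1 replicate left out it ran from 0 to 13, and without replicate 1 the trp mean, then 0.77 on 2 arrays, was called (limma adjusted p = 0.0438). The median of the photoreceptor clones there was 1.17 without centring, when all 8 were called, and 0.28 to 0.41 without 1 replicate. With arrays 3 and 4 turned, the count was 1 with SAM and 0 to 11 without 1 replicate, and the median of the clones ran from -0.093 to 0.28.

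In the fit with both components, the count for the shared component was 820 without centring, 0 for clones on all 4 arrays, 0 with no moderation, and 0 to 101 without 1 replicate, on the 195 to 764 clones then complete. For the opposite component these counts were 3, 0, 0 and 0 to 7. The robust prior, the other centring, the missing moderation and the left-out replicates of this fit were chosen after seeing the data.

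Signs turned as follows, none past the threshold unless stated. In the turned reading, Galphaq was at 0.17 and trpl at 0.39 without centring, chp at -0.021 with the running median removed, and trp at -0.018 in the fit with both components. Without 1 replicate, the turned means ran from -0.37 to 0.049 for Galphaq, -0.34 to 0.0017 for Hdc, -0.015 to 0.43 for inaD, -0.17 to 0.60 for trp, -0.47 to 0.22 for trpl and -0.26 to 0.22 for chp, and without a change of sign from 0.13 to 0.34 for inaC and 0.17 to 0.47 for rdgC. As deposited, Galphaq was at 0.68 without centring (limma adjusted p = 0.0029), and without 1 replicate it ran from -0.38 to 0.046 and rdgC from -0.0051 to 0.47, while the ranges were 0.47 to 0.77 for trp, 0.22 to 0.70 for trpl, 0.19 to 0.38 for inaC, 0.41 to 0.64 for inaD, 0.34 to 0.61 for chp and 0.22 to 0.46 for Hdc. The cause was not tested.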
